A study of Mus musculus with 272 samples.

Results

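*Myod1*, *Myf5*, *Myf6* and *Myog* encode the 4 myogenic regulatory factors, and their chromatin in mouse muscle stem cells (MuSCs) is described here from 8 peak lists. The genes were taken by name from the GENCODE M21 annotation and are 4 of the 21938 protein-coding genes on the assembled chromosomes. The study profiled Cas9 editing outcomes in MuSCs in vivo, and 8 of its 272 samples map the chromatin of these cells. GFP+ cells were sorted from hindlimb muscles of Pax7Cas9 mice, a cross of Pax7Cre mice with Cre-dependent Rosa26Cas9-EGFP mice, so that Cas9 and EGFP are expressed in cells of the *Pax7* lineage. All 8 libraries share this genotype. Their labels give skeletal muscle as the tissue and no age, strain, sex or treatment. Open chromatin was mapped by ATAC-seq. ChIP-seq was run for 3 histone marks: H3K4me3, typical of promoters, H3K27ac, typical of promoters and enhancers in use, and H3K27me3, left by Polycomb at silenced genes. Each feature has 2 replicates. No label says whether these came from separate animals, so that differences between them may be technical.

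The myogenic regulatory factors are basic helix-loop-helix transcription factors. Each pairs with an E protein and binds the E-box, a short DNA site written CANNTG, in the regulatory regions of muscle genes. *Myf5* and *Myod1* are known for committing cells to the muscle lineage and are marks of MuSCs and their proliferating progeny. *Myog* is known for driving the differentiation of myoblasts. *Myf6*, also called Mrf4, acts in the embryo and is the most abundant of the family in adult muscle fibres.

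The 4 promoters differed in their marks. *Myod1* and *Myf5* carried open chromatin, H3K4me3 and H3K27ac over the start site. *Myf6* carried the same 3 features only downstream of its start, over the last part of the gene. *Myog* had open chromatin and a narrow, weak H3K4me3 peak, and no H3K27ac. None of the 4 promoters had an H3K27me3 peak in either replicate.

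A promoter was taken as 3 kb either side of a start site and counted as marked when both replicates had a peak there. ATAC-seq marked 4 of the 4 promoters, against 67.8% of all protein-coding genes. H3K4me3 also marked 4 of 4, against 60.8%. H3K27ac marked 3 of 4, all except *Myog*, against 46.6%. H3K27me3 marked 0 of 4, against 4.81%. ATAC-seq, H3K4me3 and H3K27ac without H3K27me3 was the state of *Myod1*, *Myf5* and *Myf6* and of 44.4% of protein-coding genes, whereas the state of *Myog*, ATAC-seq and H3K4me3 with neither H3K27 mark, was that of 6.36%. With 4 genes, these counts are a description and were not tested. With promoters of 1 kb either side, *Myf6* was no longer marked by ATAC-seq or H3K27ac, which left 3 and 2 marked genes.

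A stricter count asked for a peak over the start site itself in both replicates. *Myod1* and *Myf5* met it for ATAC-seq, H3K4me3 and H3K27ac, that is 2 of the 4 genes each time. The background shares were 56.1% for ATAC-seq, 56.6% for H3K4me3 and 39.1% for H3K27ac. No gene of the 4 met it for H3K27me3, where the background was 1.24%. The start sites of *Myf6* and *Myog* were covered by no peak of any of the 8 lists.

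**Figure D1:**
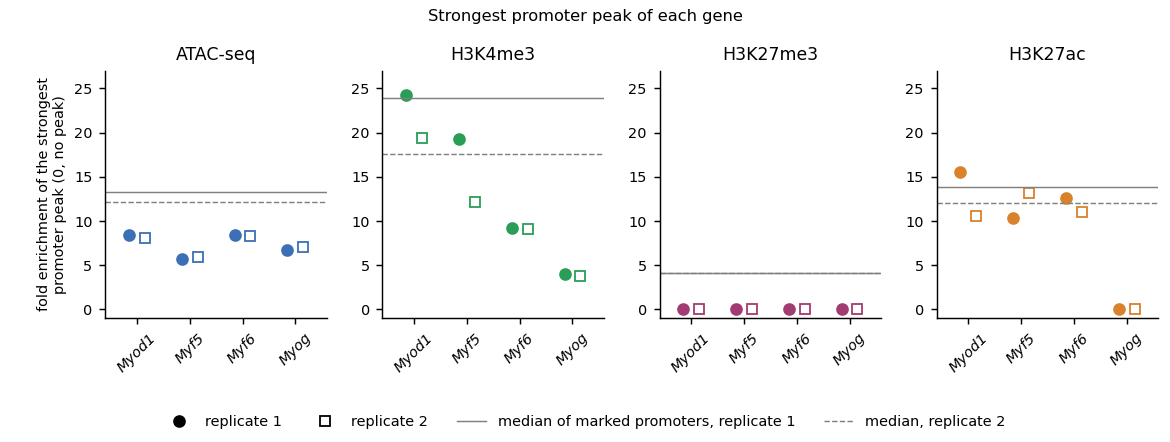
Fold enrichment at the summit of the strongest promoter peak (vertical axis, linear; 0 stands for no peak) for each gene, with filled circles for replicate 1, open squares for replicate 2 and grey lines for the median of all marked protein-coding promoters in each list. H3K4me3 is highest at *Myod1* (24.2 and 19.4) and lowest at *Myog* (3.95 and 3.81), H3K27ac is similar in 3 genes and missing at *Myog*, and H3K27me3 is at 0 throughout.

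The size of the peaks also differed between the genes. Peak size is given as fold enrichment, the signal at the summit over the local background that MACS2 estimates, and was compared only within a list. Values of the strongest peak in replicates 1 and 2 need not come from the same peak. For H3K4me3, the strongest promoter peak was 24.2-fold and 19.4-fold in replicates 1 and 2 at *Myod1*, 19.3-fold and 12.2-fold at *Myf5*, 9.17-fold and 9.12-fold at *Myf6*, and 3.95-fold and 3.81-fold at *Myog*. This order held in both replicates. The 19.4-fold of *Myod1* in replicate 2 and the 19.3-fold of *Myf5* in replicate 1 were almost equal, but come from lists with different medians. The median over all marked promoters was 23.9-fold and 17.6-fold, so that *Myod1* lay near the middle, with lower peaks in 50.8% and 57.8% of marked promoters. At *Myog*, only 2.78% and 2.39% of marked promoters had a lower H3K4me3 peak.

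For H3K27ac, the strongest promoter peaks were 15.5-fold and 10.6-fold at *Myod1*, 10.3-fold and 13.2-fold at *Myf5*, and 12.6-fold and 11-fold at *Myf6*. The order of these 3 genes differed between the replicates, and they cannot be ordered. For ATAC-seq, *Myod1* (8.41-fold and 8.12-fold) and *Myf6* (8.37-fold and 8.28-fold) changed order between the replicates, followed by *Myog* (6.72-fold and 7.02-fold) and *Myf5* (5.72-fold and 5.97-fold). All 4 lay below the medians of marked promoters, 13.3-fold and 12.2-fold. The values of *Myf5* are from different peaks, one upstream of the start in replicate 1 and one within the gene in replicate 2. For *Myf5*, 6.39% and 9.7% of the promoters with an ATAC-seq peak had a lower one.

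*Myod1* lies on chromosome 7 at 46376474 to 46379099 on the plus strand of mm10 (ENSMUSG00000009471.4), with 3 exons. Its ATAC-seq peak of 568 and 651 bp covered the start site and the beginning of exon 1, including the 5′ UTR. The H3K4me3 peak was 4179 and 3697 bp wide and ran over all 3 exons and past the end of the gene, to 3123 and 3110 bp from the start. Of the promoters marked by H3K4me3, 95.1% and 96.1% had fewer covered bases. H3K27ac covered 3138 and 2562 bases of the promoter, in 1 peak in replicate 1 and 2 peaks in replicate 2. ATAC-seq covered 913 and 1055 bases in all, more than in 67.2% and 74.5% of the promoters it marked. Both histone marks and open chromatin at *Myod1* thus covered more bases than in the median marked promoter.

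*Myf5* and *Myf6* stand side by side on the minus strand of chromosome 10, at 107482908 to 107486134 (ENSMUSG00000000435.1) and 107492853 to 107494737 (ENSMUSG00000035923.4). Their start sites are 8603 bp apart, and each gene has 3 exons. At *Myf5*, H3K4me3 and H3K27ac covered exons 1 and 2 whole in both replicates. H3K4me3 covered 100% and 84.3% of exon 3, and H3K27ac 47.7% and 34.2%. The peak over the start was 5004 and 3462 bp wide for H3K4me3, and 5810 and 3400 bp wide for H3K27ac. Counting all peaks, H3K4me3 covered 97.3% and 86.8% of the promoter and H3K27ac 92.4% and 77%. Few marked promoters were covered as widely. Fewer bases were covered in 98.9% and 99.2% of the promoters with H3K4me3 and in 99.2% and 99% of those with H3K27ac. The open chromatin of *Myf5* was split into 5 and 7 small ATAC-seq peaks within the promoter, of which the one over the start and 5′ UTR was 3.26-fold and 3.93-fold.

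At *Myf6* the first exon had no peak in any list. Its ATAC-seq peak of 249 and 449 bp (8.37-fold and 8.28-fold) began 1041 and 882 bp downstream of the start and reached from intron 2 into exon 3, touching exon 2 in replicate 2 only. H3K4me3 began 823 and 945 bp downstream, and H3K27ac 1044 and 1201 bp downstream. Both marks ran over exon 3 and the 3′ UTR and ended 3093 to 3683 bp from the start, past the end of the gene at 1885 bp. The peaks counted as the promoter state of *Myf6* therefore lay over the last exon of the gene and the DNA between *Myf6* and *Myf5*, and whether they belong to the one or the other gene cannot be told from the lists.

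*Myog* lies on chromosome 1 at 134289989 to 134292548 on the plus strand (ENSMUSG00000026459.5), with 3 exons. An ATAC-seq peak of 200 and 312 bp ended 185 and 85 bp before the start site in replicates 1 and 2, and a second one (5.22-fold and 3.64-fold) lay across the border of exon 1 and intron 1. The H3K4me3 peak over exon 1 and intron 1 was 978 bp wide in replicate 1 and 215 bp in replicate 2. Of the promoters with H3K4me3, 14.8% and 0.996% had fewer covered bases. The nearest H3K27ac peak was 12.8 kb downstream in replicate 1 and 44.5 kb upstream in replicate 2, which are different peaks.

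**Figure D2:**
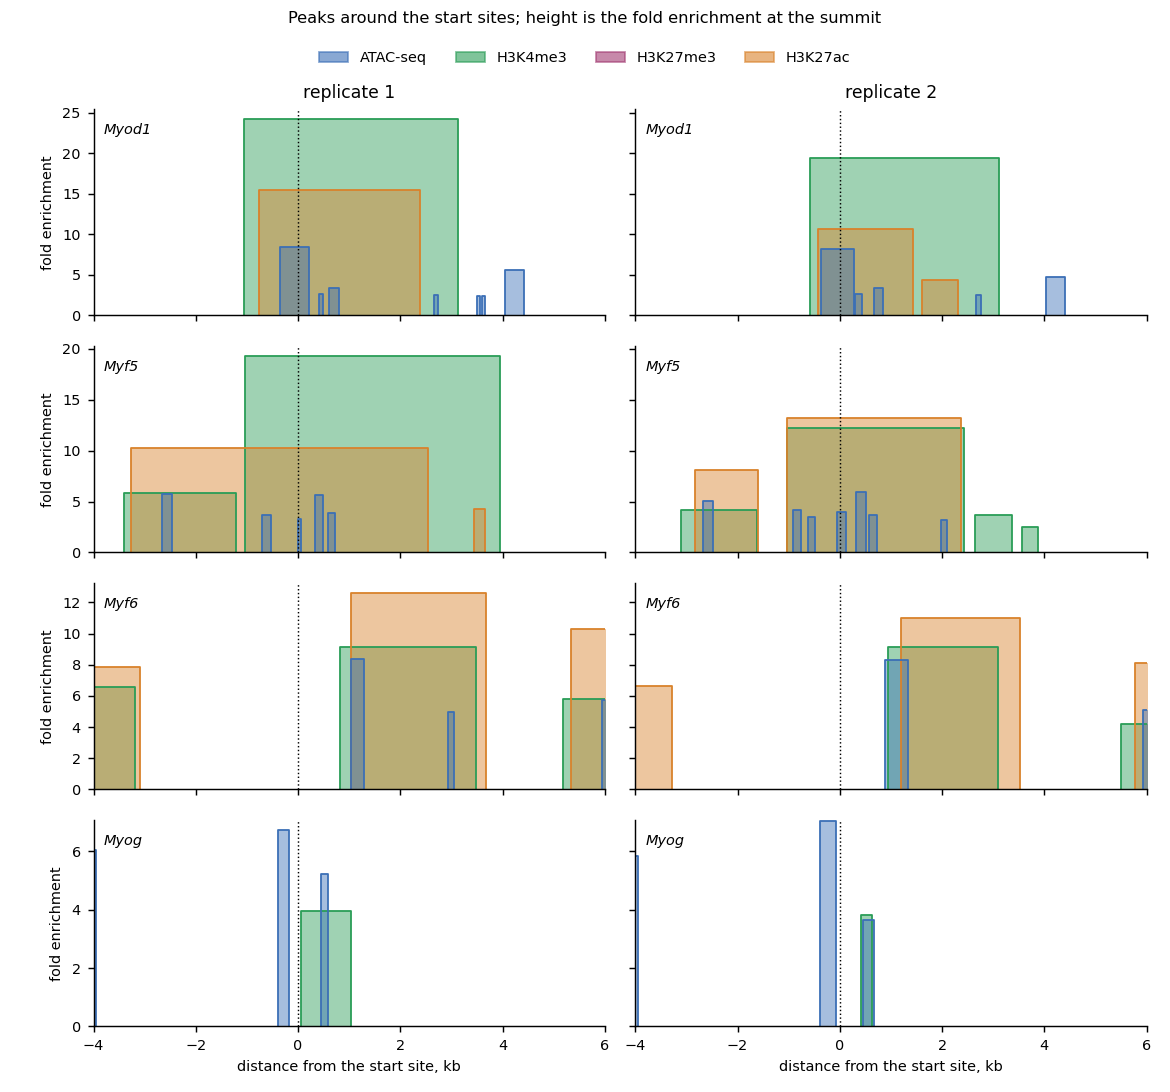
Peaks from 4 kb upstream to 6 kb downstream of each start site (dotted line; transcription runs to the right), 1 row per gene and 1 column per replicate. Box width is the width of a peak, box height its fold enrichment at the summit (each row has its own scale). Wide H3K4me3 and H3K27ac boxes cover the start of *Myod1* and *Myf5*, begin downstream of the start at *Myf6*, and are replaced by a small H3K4me3 box of 3.95-fold and 3.81-fold at *Myog*.

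RefSeq gives promoter sequences on the same build, GRCm38.p6, for *Myog* and *Myf5*, and 2 of the 4 genes were thus matched. They are shown because the open site at *Myog* stops short of the start while that of *Myf5* covers it. The 250 bases before the RefSeq start site are printed 5′ to 3′ along the gene, with E-boxes (CANNTG) in capitals. Both strands were searched.
Myog promoter, chr1:134289754-134290003, plus strand: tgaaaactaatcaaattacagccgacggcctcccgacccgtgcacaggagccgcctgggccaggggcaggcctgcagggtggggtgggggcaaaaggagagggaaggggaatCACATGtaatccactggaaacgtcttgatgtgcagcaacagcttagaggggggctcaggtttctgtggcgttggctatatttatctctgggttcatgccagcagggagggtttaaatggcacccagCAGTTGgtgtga
Myf5 promoter, chr10:107486135-107486384, minus strand: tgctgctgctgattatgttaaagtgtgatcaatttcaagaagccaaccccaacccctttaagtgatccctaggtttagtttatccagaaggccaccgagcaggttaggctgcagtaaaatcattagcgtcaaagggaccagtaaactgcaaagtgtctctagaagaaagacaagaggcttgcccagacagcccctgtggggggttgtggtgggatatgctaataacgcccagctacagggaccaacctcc

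The *Myog* sequence held 2 E-boxes, CACATG and CAGTTG, whose first bases lay 138 and 12 bases before the RefSeq start, which is 15 bp downstream of that in GENCODE. The ATAC-seq peak of replicate 2 covered the first E-box, and no ATAC-seq peak covered the other. The *Myf5* sequence had no E-box and hence no capitals. Over 300 bases, the 250 printed and the next 50, at least 1 E-box was present in 69% of 21262 promoters of protein-coding genes. The letters TATAAA, present in 12.6% of them, were found 1 time at *Myf5*, in the bases after the start, and not at *Myog*. CAGCTG and CAGGTG, both forms of CANNTG, were found in neither promoter and in 15.6% and 19.7% of all.

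The windows of 50 kb either side were examined next. Together they held 56 and 47 ATAC-seq peaks, 9 and 13 H3K4me3 peaks, 12 and 9 H3K27ac peaks, and 5 and 7 H3K27me3 peaks in replicates 1 and 2, with the peaks shared by *Myf5* and *Myf6* counted once. For ATAC-seq, 85.7% of the replicate 1 peaks and 93.6% of the replicate 2 peaks overlapped a peak of the other replicate. The shares were 88.9% and 92.3% for H3K4me3, 80% and 57.1% for H3K27me3, and 58.3% and 100% for H3K27ac. For H3K27ac, every replicate 2 peak was thus matched in replicate 1, which listed further peaks.

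**Figure D3:**
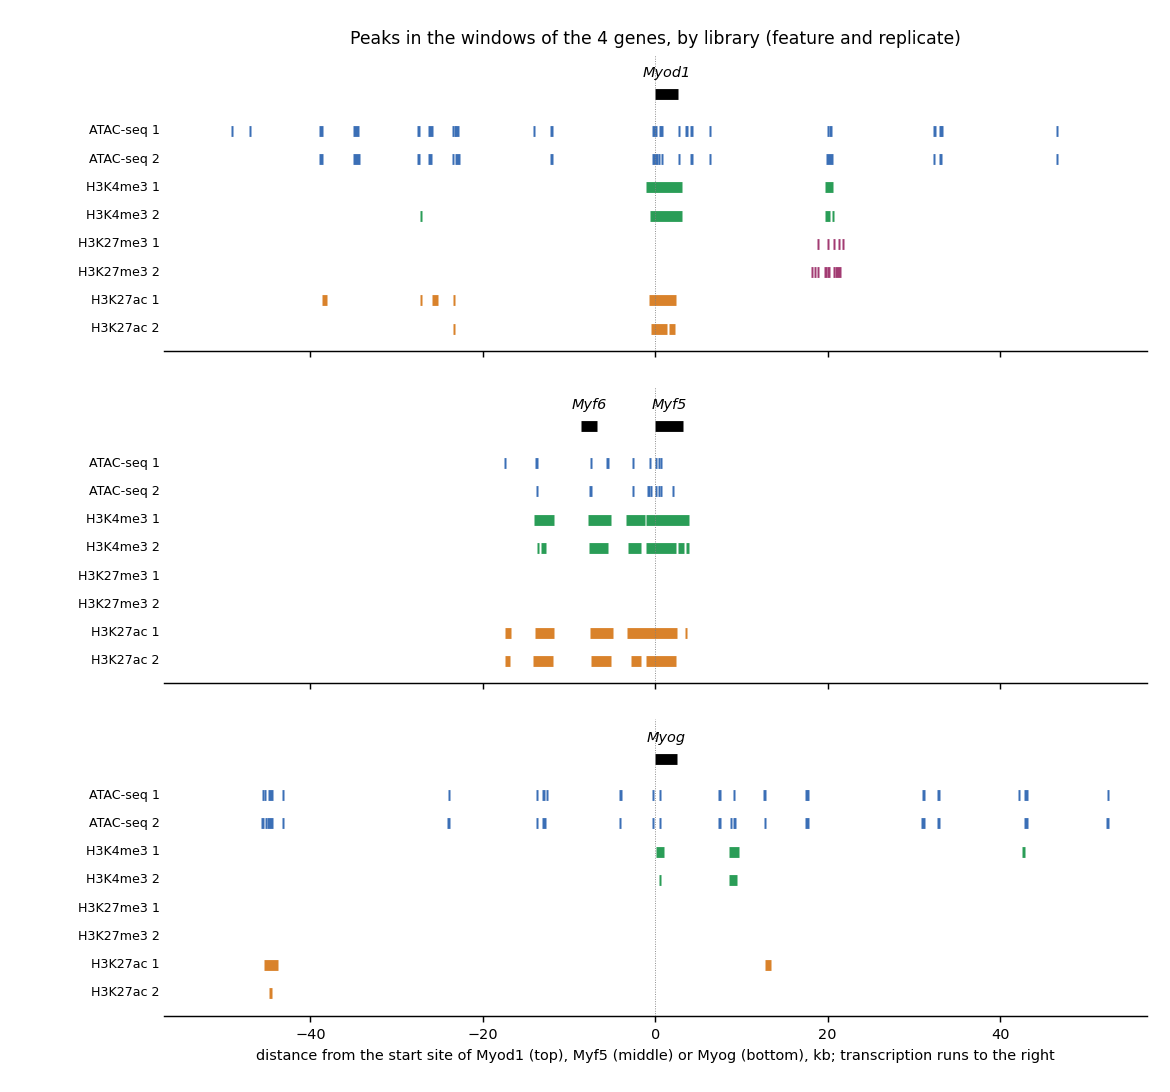
All peaks of the 8 lists (rows; feature and replicate) in the gene and 50 kb either side, by distance in kb from the start site of *Myod1* (top), *Myf5* (middle) or *Myog* (bottom), with genes as black bars and very narrow peaks widened to remain visible. ATAC-seq peaks spread over the windows of *Myod1* and *Myog*, the marks of *Myf5* and *Myf6* lie within 21.5 kb, and H3K27me3 appears in the *Myod1* window only, centred 18.2 to 21.7 kb downstream.

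The *Myf5* and *Myf6* region was compact. All its peaks in all lists fell within 21.5 kb, from position 107482176 to 107503672 on chromosome 10, that is from the end of *Myf5* to the DNA upstream of *Myf6*. H3K27ac covered 11624 and 9855 bases of the *Myf5* window, more than in 97.6% and 98.5% of protein-coding genes, whose median was 1766 and 1316 bases. H3K4me3 covered 12132 and 8932 bases, more than in 96.3% and 95.4%. ATAC-seq covered 1492 and 1852 bases, and here 34.7% and 42.3% of genes had fewer. It had 9 peaks in each replicate, where the median gene had 12 and 8. The histone marks were thus extensive over this locus, while the number of open sites was near that of the median gene and their bases were below it. *Myf6* had the same peaks in its window and the same percentiles.

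The *Myod1* window held 26 and 18 ATAC-seq peaks, and 91.4% and 92.5% of protein-coding genes had fewer open bases. Its H3K27ac percentiles were 80.5 and 71.8. At *Myog*, the 21 and 20 ATAC-seq peaks gave percentiles of 84 and 89.2, while H3K27ac covered 2295 and 264 bases, at percentiles of 57.1 and 32.3. *Myog* was thus above the median gene for open chromatin in both replicates and on either side of it for H3K27ac. With 25 kb either side, the mean H3K27ac percentile of *Myog* was 20.5 in place of 44.7.

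**Figure D4:**
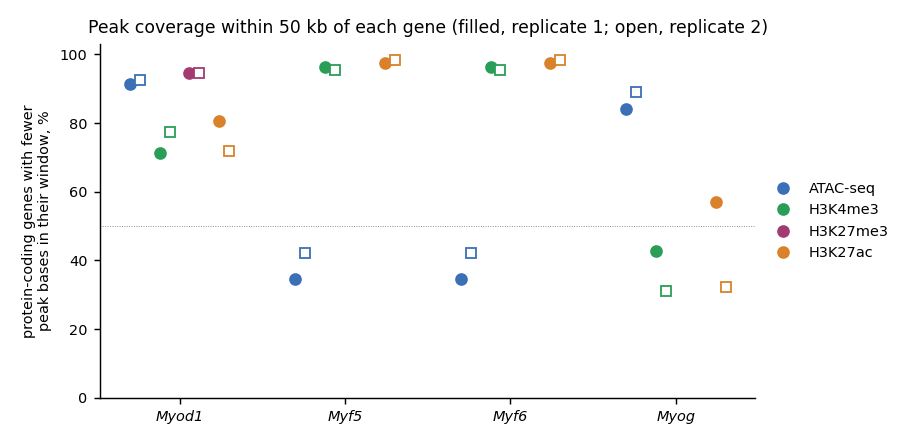
Share of protein-coding genes (vertical axis, %) with fewer peak bases in the gene and 50 kb either side than each of the 4 genes, by feature, with filled circles for replicate 1 and open squares for replicate 2; features with 0 bases are not drawn. *Myf5* and *Myf6* are at 95.4% or more for both H3K4me3 and H3K27ac and at 42.3% or less for ATAC-seq, and *Myod1* and *Myog* are at 84% or more for ATAC-seq.

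Outside all annotated promoters, a region that was open in both ATAC-seq replicates and overlapped H3K27ac in both replicates was found 1 time at each locus. These 3 elements lay outside annotated genes. The strongest lay at chr10:107499712-107500008, 5.12 kb upstream of *Myf6* and 13.7 kb upstream of *Myf5*. Its ATAC-seq peak of 19.5-fold and 16.9-fold was the highest of the *Myf5* and *Myf6* window in both replicates, and higher than any ATAC-seq peak in the 2 promoters. The H3K27ac peaks that overlapped it were 7.85-fold and 6.65-fold, with their summits outside the element. The overlapping H3K4me3 peak was 6.57-fold in replicate 1, also with its summit outside, and 3.05-fold in replicate 2. Replicate 2 listed another H3K4me3 peak of 4.28-fold beside the element, so that these H3K4me3 values are not of the same site. A further H3K27ac peak lay 17.1 and 17.2 kb upstream of *Myf5* (5.08-fold and 3.78-fold), with an ATAC-seq peak in replicate 1 only.

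At *Myod1*, whose expression is known to depend on a core enhancer and a distal regulatory region upstream of the gene, the element lay 23.4 kb upstream. It was only 44 bp wide, at chr7:46353006-46353049, against 297 bp at *Myf5* and *Myf6* and 264 bp at *Myog*. H3K27ac was 6.77-fold and 4.69-fold in a peak of 221 and 206 bp, and the overlapping ATAC-seq peak was low, at 2.84-fold and 3.25-fold. In replicate 2 the H3K27ac peak had a −log10 q of 4.75, so that a limit of 5 would leave it out. A stronger ATAC-seq peak of 9.45-fold and 8.81-fold, centred 23 kb upstream, began at the edge of the H3K27ac peak. The strongest open site within 50 kb upstream of *Myod1* was 34.7 kb away, with 12.4-fold and 13.6-fold and no histone mark. Further shared open sites lay 38.8 kb (8.6-fold and 6.53-fold), 26.1 kb (8.54-fold and 8.87-fold) and 12 kb (6.23-fold and 6.44-fold) upstream. Between the last of these and the promoter no list held a peak. H3K27ac peaks 38.4, 27.2 and 25.6 kb upstream were listed in replicate 1 only.

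At *Myog*, the element lay 44.6 kb upstream at chr1:134245245-134245508. Its ATAC-seq peak was 12.5-fold and 11-fold and its H3K27ac peak 7.66-fold and 5.88-fold, without H3K4me3. This was the only H3K27ac in the window that both replicates listed. The other H3K27ac peak, 13.1 kb downstream within *Ppfia4* (6.51-fold), was in replicate 1 only. Open sites without a histone mark lay 24 kb (11.9-fold and 15.1-fold) and 13 and 12.9 kb (10.5-fold and 12.8-fold) upstream, each higher than the 6.72-fold and 7.02-fold of the promoter.

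Sequences of open sites at these loci are shown since E-boxes are the sites that the myogenic regulatory factors and other basic helix-loop-helix proteins bind. Each is 300 bases of GRCm38.p6, plus strand, centred on the summit of the ATAC-seq peak in replicate 1, with CANNTG in capitals. For *Myod1* the stronger peak 23 kb upstream is printed, which lies beside the element and does not include it. The other sequences overlap their elements without sharing their ends.
Myod1 neighbouring open site, chr7:46353228-46353527: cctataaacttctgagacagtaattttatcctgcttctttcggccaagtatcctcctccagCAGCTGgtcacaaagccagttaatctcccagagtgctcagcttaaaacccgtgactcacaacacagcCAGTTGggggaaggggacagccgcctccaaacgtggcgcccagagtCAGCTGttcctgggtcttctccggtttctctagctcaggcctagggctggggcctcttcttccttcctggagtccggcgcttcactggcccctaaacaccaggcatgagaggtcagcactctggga
Myf5 and Myf6 upstream element, chr10:107499742-107500041: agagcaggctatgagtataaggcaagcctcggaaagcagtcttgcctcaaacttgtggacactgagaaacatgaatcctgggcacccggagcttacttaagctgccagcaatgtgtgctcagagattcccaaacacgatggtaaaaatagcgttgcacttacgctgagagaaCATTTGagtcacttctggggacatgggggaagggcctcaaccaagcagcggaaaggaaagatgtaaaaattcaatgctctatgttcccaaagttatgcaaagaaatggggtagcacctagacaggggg
*Myog* upstream element, chr1:134245377-134245676: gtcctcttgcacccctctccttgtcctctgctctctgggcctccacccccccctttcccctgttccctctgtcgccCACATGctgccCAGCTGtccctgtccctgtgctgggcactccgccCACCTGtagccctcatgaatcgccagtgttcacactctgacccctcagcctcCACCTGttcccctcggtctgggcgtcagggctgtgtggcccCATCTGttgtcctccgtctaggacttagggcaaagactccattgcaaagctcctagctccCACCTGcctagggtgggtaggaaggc

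The open site beside the *Myod1* element held 3 E-boxes, of which 2 were CAGCTG. The *Myf5* and *Myf6* sequence held 1, CATTTG, and the *Myog* sequence held 6. Those 6 are of the printed bases 134245377 to 134245676, while the *Myog* element ends at 134245508, so that some lie outside it. The element begins at 134245245, and its bases before the printed sequence are not included. Among 88575 windows of the same length centred on shared ATAC-seq peaks of the whole genome, 27.6% had at least 3 E-boxes, 79.9% at least 1, and 1.6% at least 6. A match in letters is not evidence of binding.

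Over all 48 shared ATAC-seq peaks in the windows of the 4 genes, 39 of the 300-base sequences, or 81.2%, held an E-box, against 79.9% of such sequences genome-wide. CAGCTG was present in 43.8% against 32.4%, with 11 of 21 at *Myod1*, 0 of 7 at *Myf5* and *Myf6*, and 10 of 20 at *Myog*. CAGGTG was present in 35.4% against 19.3%. TGANTCA, the site of AP-1 factors, was present in 16.7% against 22.9%. The MEF2 consensus was found in 2 of 48, or 4.17%, against 2.24%. Some of the sequences overlap each other, so that these shares are a description only.

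H3K27me3 was listed near 1 of the genes only. In the *Myod1* window, 5 and 7 peaks lay 18.2 to 21.7 kb downstream, all in the promoter of the neighbouring gene *Kcnc1*, a voltage-gated potassium channel. The strongest was 5.25-fold and 6.85-fold. The promoter of *Kcnc1* also had ATAC-seq (13.7-fold and 13.3-fold) and H3K4me3 (9.15-fold and 6.01-fold), and no H3K27ac. The nearest H3K27me3 base was 18.8 and 18.1 kb from the start of *Myod1*, 849 and 236 kb from that of *Myf5*, and 54.4 and 355 kb from that of *Myog*. The H3K27me3 lists contained peaks down to a p-value of 0.001 with no limit on q, and with a q-value of at most 0.05 the mean number in the windows went from 6 to 3. The depth of the libraries is unknown, so that an unlisted promoter may still carry the mark below this limit.

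Other genes start in these windows. The long noncoding RNA *1700025L06Rik*, 27.1 kb upstream of *Myod1*, had ATAC-seq of 8.54-fold and 8.87-fold, with H3K4me3 (4.01-fold) in replicate 2 and H3K27ac (4.39-fold) in replicate 1. *Ppfia4*, which encodes a liprin and ends downstream of *Myog* on the opposite strand, had ATAC-seq at its start 43 kb downstream of *Myog* of 8.37-fold and 7.64-fold, and H3K4me3 there of 2.69-fold in replicate 1 only. Near a start site of shorter transcripts, ATAC-seq 12.7 kb downstream of *Myog* was 7.25-fold and 7.98-fold, beside the H3K27ac peak of 6.51-fold in replicate 1. Inside *Ppfia4*, 9.12 and 9.01 kb downstream of the *Myog* start, an H3K4me3 peak of 11.7-fold and 11.2-fold overlapped exons, away from any annotated start site and without H3K27ac. It was higher than the H3K4me3 peak at *Myog* itself in both replicates.

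To find promoters most like each member, the fold enrichment of the strongest promoter peak was turned into a percentile within each of the 8 lists, 0 where there was no peak, and the Euclidean distance over the 8 values was taken to all 21937 other protein-coding genes. The genes nearest to *Myod1* were *Klf15* (distance 9.37), *Trmt12* (10.8) and *Sox11* (10.9). Nearest to *Myf5* were *Ctsz* (18.2), *Bloc1s1* (19.4) and *Tns2* (19.4), and nearest to *Myf6* were *Ech1* (14.1), *Mthfs* (14.1) and *Gm5105* (14.9). Nearest to *Myog* were *Kndc1* (2.04), *Ecm2* (3.13) and *Hcls1* (3.66). Within the family, *Myf5* and *Myf6* were closest, at 34.6, and *Myod1* and *Myog* farthest apart, at 102. No member was among the 3 genes nearest to another, and *Myf6* ranked 80 among the genes nearest to *Myf5*.

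The network around the 4 genes was followed in 70 further genes of known role. ATAC-seq marked the promoters of 69 in both replicates (98.6%, against 67.8% of all protein-coding genes), H3K4me3 those of 61 (87.1% against 60.8%), H3K27ac 48 (68.6% against 46.6%) and H3K27me3 9 (12.9% against 4.81%). The state of *Myod1*, *Myf5* and *Myf6* was found in 42 of the 70, or 60%, against 44.4%. That of *Myog* was found in 2, or 2.86%, against 6.36% of all protein-coding genes. These were *Meox2*, a homeobox factor of the limb muscle lineage, and *Snai1*, a zinc finger repressor that competes for E-boxes.

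Among 13 factors upstream of the family, all had ATAC-seq and H3K4me3, against 67.8% and 60.8% of all protein-coding genes. H3K27ac marked 8 (61.5% against 46.6%) and H3K27me3 4 (30.8% against 4.81%). *Pax7*, the factor that defines MuSCs, had H3K4me3 of 19-fold and 12.6-fold and H3K27ac of 15-fold and 14.7-fold. The H3K4me3 values were close to those of *Myf5*, while H3K27ac, and ATAC-seq at 10.9-fold and 10.4-fold, were higher than at *Myf5* in both replicates. H3K27me3 was found at *Pax3* (4.88-fold and 6.5-fold), *Tbx1* (3.75-fold and 4.45-fold), *Foxc1* (6-fold and 6.5-fold) and *Foxc2* (5.63-fold and 8.56-fold). *Pax3*, *Eya2*, *Meox2*, *Foxc1* and *Foxc2* had no H3K27ac in either replicate. All 5 act in embryonic mesoderm or limb muscle precursors.

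The 13 partners of the family had ATAC-seq and H3K4me3 without exception and no H3K27me3. The shares over all protein-coding genes were 67.8%, 60.8% and 4.81%. H3K27ac marked 12 of the partners (92.3%, against 46.6% of all protein-coding genes). These included the E proteins *Tcf3* (21.6-fold and 18.8-fold), *Tcf4* (20.7-fold and 16.9-fold) and *Tcf12* (34.9-fold and 31.3-fold), all above each of the 4 members. *Mef2c*, a MADS-box factor that acts with *Myog* in differentiation, had H3K27ac of 3.45-fold in replicate 1 only.

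Of 20 inhibitors, all had ATAC-seq and H3K4me3, against 67.8% and 60.8% of all protein-coding genes. H3K27ac marked 16 (80% against 46.6%) and H3K27me3 3 (15% against 4.81%). The Id genes, whose proteins take E proteins away from the myogenic factors, were all marked, from 5.75-fold and 6.25-fold at *Id4* to 15.7-fold and 11.6-fold at *Id2*. *Msc*, an E-box repressor of MuSCs, had 15.4-fold and 11.6-fold. *Twist1*, *Twist2* and *Snai1* had no H3K27ac, and *Mdfi*, which holds the myogenic factors in the cytoplasm, had it in replicate 1 only (4.6-fold). H3K27me3 was found at *Twist1* (4.5-fold and 4.79-fold), *Hes1* (3.26-fold and 4.79-fold) and *Sim2* (3.38-fold and 5.13-fold), the last 2 together with H3K27ac.

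Of the 24 target genes, ATAC-seq marked 23 (95.8%, against 67.8% of all protein-coding genes), H3K4me3 15 (62.5% against 60.8%) and H3K27ac 12 (50% against 46.6%). The shares for H3K4me3 and H3K27ac were near those of all genes. Among those without H3K4me3 in either replicate were *Myh3*, *Tnnt2* and *Tnni1*, which encode sarcomere proteins and were open without any histone mark. *Mymk*, the fusion protein of myoblasts, had ATAC-seq of 13.8-fold and 15.9-fold and H3K4me3 of 2.92-fold in replicate 1 only. *Ckm* (6-fold and 3.74-fold) and *Acta1* (3.75-fold and 4.11-fold), genes of mature fibres, had H3K27me3. They were the only targets with it, or 8.33% against 4.81% of all protein-coding genes. *Cdkn1a*, the cell cycle inhibitor induced by *Myod1*, had H3K4me3 of 47-fold and 31.1-fold and H3K27ac of 19.9-fold and 17.7-fold. Desmin (*Des*), *Cdh15*, *Itga7* and *Musk* also carried all 3 features.

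**Figure D5:**
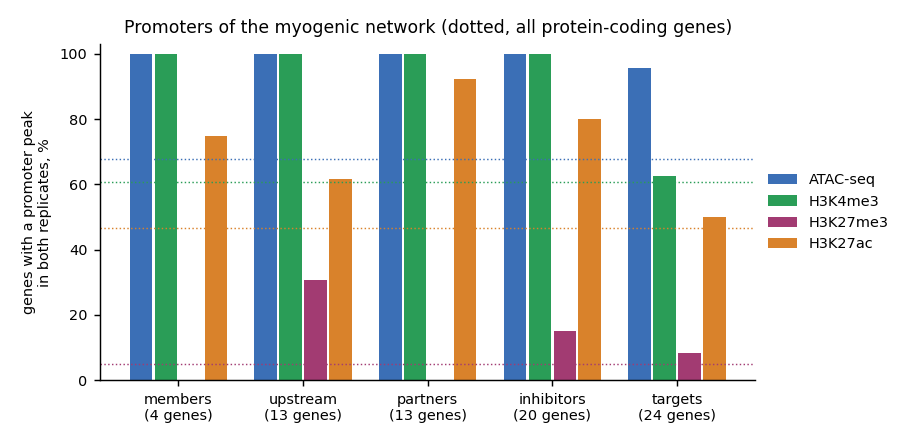
Share of genes (vertical axis, %) with a promoter peak in both replicates, by feature, for the 4 members and 4 role groups of the myogenic network; dotted lines give the same share over all protein-coding genes. ATAC-seq marks all genes of every group except 1 target, and H3K27ac is lowest in the targets (12 of 24) and highest in the partners (12 of 13).

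The labelled cell type was compared with marker genes other than the 4 members. Of 11 MuSC markers, 11 had ATAC-seq and H3K4me3 and 10 H3K27ac in both replicates. The shares over all protein-coding genes were 67.8% for ATAC-seq, 60.8% for H3K4me3 and 46.6% for H3K27ac. H3K27ac marked 3 of 10 markers of fibro-adipogenic cells (*Dpt*, *Col15a1* and *Cd55*) and 1 of 10 of endothelial cells (*Tek*). It marked 1 of 9 of blood cells (*Cd68*), 3 of 10 of myofibres (*Myh1*, *Mylpf* and *Actn3*) and 1 of 10 of neurons (*Camk2a*). The promoters of *Dcn*, *Lum*, *Ly6a* and *Robo4* had no peak in any list. ATAC-seq separated these lists less, with 6 to 9 markers of each other cell type marked, or 60% to 90%, around the share over all genes. The part of other cells in the peaks at the 4 genes was not tested.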

How the data were processed

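ATAC-seq and ChIP-seq peaks of MuSCs were used, 1 deposited list per library. According to their methods, the authors trimmed reads with Trim Galore (v.0.6.10), aligned them to mm10 with BWA (v.0.7.17-r1188), discarded duplicates, reads of mapping quality below 30 and blacklisted regions, shifted ATAC-seq reads for the Tn5 cut with deepTools (v.3.5.5), and called peaks with MACS2 (v.2.2.6), per replicate. The fold deposited for each peak is a ratio, the signal at its summit over the local background, and the p-values and q-values deposited by the authors are on the −log10 scale. Since the lists hold no reads, depth is unknown and counting intervals cannot be given. The series lists 1 input sample for H3K4me3 and H3K27me3 together and 1 for H3K27ac. The methods do not say whether peaks were called against them. The study's other samples were not used here.

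GENCODE M21 was the annotation for the 21 assembled chromosomes, and an overlap of 1 bp was enough. The 4 genes, the gene lists and the motifs were chosen with earlier results of these data known. No test was made, as 2 replicates per feature without a contrast allow none. Named by rule were the 4 genes, protein-coding genes starting in their windows, network genes with H3K27me3 or with an H3K27ac state unlike most of their role group, and the 3 genes nearest to each member. 1700025L06Rik and the other network genes were named after their values were seen. Promoter sequences came from RefSeq and elements from GRCm38.p6. The overlap code gave 0 mismatches in 2000 queries of simulated intervals. Protein sequences were not analysed here, and 1 listed network gene, 1 listed motif and 1 sequence are not reported here. Python 3.11.15, numpy 2.4.6, pandas 2.3.3 and matplotlib 3.10.9 were used.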

Additional observations from a re-analysis of the deposited data

How the results depend on the processing

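Of 81 alternatives tried on 16 results, 59 stayed within the limits set. The limits held no rule for a reversal of direction, so none could be found. For the percentiles, leaving out 1 replicate could not exceed the limit, which was the spread of the replicates. *Myf5* and *Myf6* share their window peaks but were counted as separate results. The counts of marked promoters were 3 in place of 4 for ATAC-seq and 2 in place of 3 for H3K27ac with promoters of 1 kb either side, and did not change under the other alternatives. The limit for counts was wide enough that both losses are among the 59. Numbers of peaks followed the size of the window for ATAC-seq, where the mean of 51.5 became 33.5 with 25 kb and 79 with 100 kb. The mean of 6 H3K27me3 peaks became 3 with q of at most 0.05 and 0.5 with a −log10 q of at least 5, where no share could be computed as 1 replicate had no peak left. Shared peaks were fewer when 50% of both peaks had to overlap, at 72.4% in place of 89.7% for ATAC-seq, 56.4% in place of 90.6% for H3K4me3 and 34.3% in place of 68.6% for H3K27me3. For H3K27ac the share was 58.3% in place of 79.2%. This stayed within the limit only because its replicates differed widely, with a spread of 29.5. With lists of equal length the shares were 82.2% for ATAC-seq, 96.2% for H3K4me3, 45% for H3K27me3 and 85% for H3K27ac. With a −log10 q of at least 5 that of H3K4me3 was 95%. The mean H3K27ac percentile of *Myod1*, 76.2, was 82.4 with 25 kb, 65.4 with 100 kb, 69.5 with a −log10 q of at least 5 and 82.8 per kb of window. That of *Myf5* and *Myf6*, 98.1, was 99.4 with 25 kb, 92.2 with 100 kb and 99 per kb, and that of *Myog*, 44.7, was 20.5 with 25 kb. Leaving out 1 replicate gave 71.8 to 80.5 for *Myod1*, 97.6 to 98.5 for *Myf5* and *Myf6*, and 32.3 to 57.1 for *Myog*. No paired analysis was possible because no result comes from a test. The unknown depth, and the looser limit of the H3K27me3 lists, bound what a missing peak can show.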

Other observations

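Beyond the windows, a distance band of 50 to 150 kb from the genes was added after the data had been seen. An H3K27ac peak in both replicates lay 61.2 and 60.9 kb upstream of *Myod1*, outside annotated genes, at 5.12-fold and 3.44-fold. An H3K4me3 peak in both replicates lay 77 kb upstream of *Myf5* over an exon of *Ptprq*, which encodes a receptor phosphatase, at 4.49-fold and 3.61-fold, with no H3K27ac and no annotated start site there. Around *Myog*, the promoters of *Tmem183a* (71.7 and 71.8 kb downstream), *Cyb5r1* and *Adipor1*, a receptor of adiponectin, had H3K4me3 of 37.6-fold and 29.1-fold, 19.9-fold and 12.3-fold, and 44.9-fold and 33-fold. These 3 also had H3K27ac in both replicates, from 13-fold and 11.4-fold at *Cyb5r1* to 38-fold and 26.4-fold at *Adipor1*. The promoter of *Adora1*, an adenosine receptor, 54.9 and 55 kb upstream, had H3K4me3 of 5.66-fold and 5.55-fold, an H3K27me3 peak in replicate 1 only (4.5-fold) and, like *Myog*, no H3K27ac.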
